A study of Mus musculus with 2 samples.

Results

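The genes described here are 5 DNA repair and genome stability genes that are linked to the tumour suppressor p53, namely Rrm2b, Polk, Ddb2, Xpc and Zfp365. They were taken by symbol, and all 5 were found among the 33670 gene symbols of the deposited matrices. The study compared embryoid bodies from the male mouse embryonic stem cell line J1. Embryoid bodies are floating clumps in which such cells begin to leave the stem cell state. A DMSO group received the solvent for 2 days, and a dTAG13 group received dTAG13 for 2 days, a degrader compound that targets FKBP12(F36V)-tagged proteins to the proteasome. The series title names Tex10, a subunit of a nuclear complex involved in ribosome maturation, but neither the tagged protein nor the number of clones is stated in the labels. Each group was 1 single-cell library, so no difference has a replicate check. No p-value or standard error was computed. Ranges in parentheses are 95% intervals, and they reflect counting error alone.

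p53 is a transcription factor that is held at a low level in unstressed cells and accumulates after DNA damage or faulty ribosome assembly. Besides genes of growth arrest and cell death, it is known to act on genes that help a cell copy and mend damaged DNA. Rrm2b (also called p53R2) encodes a small subunit of ribonucleotide reductase, which makes DNA building blocks outside S phase. Polk encodes DNA polymerase kappa, which copies past bulky damaged bases. Ddb2 and Xpc encode proteins that find damage for nucleotide excision repair, Ddb2 as part of a ubiquitin ligase with Ddb1 and Xpc together with Rad23b and Cetn2. Zfp365 encodes a zinc finger protein tied to the stability of fragile sites and telomeres. As background, DDB2 is a p53 target in human cells, whereas the mouse gene has been reported to lack this response.

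The RefSeq promoter table held upstream sequence for Zfp365 and Polk. The 250 bases before each listed start are shown because p53 binds DNA at pairs of a 10-base unit, the p53 decamer. Capitals mark exact decamers, and pairs of decamers at most 13 bases apart in which each has an intact core and at most 1 mismatch. Both strands are covered. The sequences are from GRCm38.p6, minus strand, at chr10:67912663-67912912 for Zfp365, chr13:96542580-96542829 for the outer Polk start and chr13:96519188-96519437 for the inner one.
Zfp365: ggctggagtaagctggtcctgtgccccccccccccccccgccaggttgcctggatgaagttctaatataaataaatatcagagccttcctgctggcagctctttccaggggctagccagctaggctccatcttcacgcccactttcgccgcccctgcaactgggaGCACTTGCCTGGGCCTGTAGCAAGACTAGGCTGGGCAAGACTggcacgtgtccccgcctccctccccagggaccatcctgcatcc
Polk, outer start: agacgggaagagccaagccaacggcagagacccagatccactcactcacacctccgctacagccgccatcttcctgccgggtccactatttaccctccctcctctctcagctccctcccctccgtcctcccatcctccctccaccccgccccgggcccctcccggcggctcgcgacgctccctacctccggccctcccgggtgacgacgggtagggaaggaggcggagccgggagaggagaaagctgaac
Polk, inner start: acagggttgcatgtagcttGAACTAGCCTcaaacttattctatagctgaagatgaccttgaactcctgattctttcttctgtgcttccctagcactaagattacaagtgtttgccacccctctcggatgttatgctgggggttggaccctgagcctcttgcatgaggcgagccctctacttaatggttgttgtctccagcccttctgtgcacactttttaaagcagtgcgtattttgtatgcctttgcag
The Zfp365 window held 2 overlapping pairs within the bases 85 to 44 before the start. At least 1 such pair was found in 1.14% of 32851 windows of this length. The inner Polk window held 1 exact decamer, found in 7.13% of windows, and the outer Polk window held neither. A match is a description of letters and does not show binding, and 3′ counts do not tell which Polk start was used.

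The libraries held 17878 DMSO and 11588 dTAG13 cells after removal of those under 500 genes or over 10% mitochondrial UMIs, a UMI being 1 tagged transcript. Their totals were 117189816 and 91808969 UMIs, and the median cell held 6014 UMIs with DMSO and 7072.5 with dTAG13. The libraries shared 63 cell barcodes, 0.352% of DMSO and 0.544% of dTAG13 cells. All 10 pluripotency markers checked were at 5 CPM or more in both libraries. Of 10 fibroblast feeder markers, Col3a1, Postn and Lum had 0 UMIs in both libraries. The list summed to 35.0 CPM with DMSO and 88.4 CPM with dTAG13, most of it Tagln at 27.6 and 85.7 CPM. Tagln was also among the leading genes of cluster 7, described below with Krt19. Acta2, on the same list, went the other way, at 6.40 and 1.83 CPM. Tex10 mRNA was at 81.3 and 64.7 CPM, which does not check the loss of a protein.

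The 5 genes split into 2 that were higher in the dTAG13 library and 3 whose levels lay close together. CPM is the usual scale of a gene's UMIs relative to all UMIs of its library. Zfp365 (ENSMUSG00000037855) had 585 UMIs in the DMSO library, or 4.99 CPM (4.596 to 5.41), and 3476 UMIs in the dTAG13 library, or 37.9 CPM (36.6 to 39.1). Polk (ENSMUSG00000021668) had 1878 UMIs, or 16.02 CPM (15.3 to 16.8), with DMSO and 3454 UMIs, or 37.6 CPM (36.4 to 38.9), with dTAG13. Neither gene's counting intervals overlapped between the libraries, at ratios of dTAG13 over DMSO of 7.58 (6.95 to 8.29) for Zfp365 and 2.35 (2.22 to 2.48) for Polk.

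The other genes of the group stayed within a narrow band. Rrm2b (ENSMUSG00000022292) was at 11.4 CPM (10.8 to 12.1) from 1339 UMIs with DMSO and at 11.3 CPM (10.6 to 12.0) from 1036 UMIs with dTAG13, a ratio of 0.988 (0.910 to 1.07). Xpc (ENSMUSG00000030094) was at 19.1 CPM (18.3 to 19.9) from 2240 UMIs and at 18.1 CPM (17.3 to 19.0) from 1663 UMIs, a ratio of 0.948 (0.889 to 1.01). Ddb2 (ENSMUSG00000002109) had the fewest UMIs of the group in the dTAG13 library, 360, and was at 4.59 CPM (4.21 to 4.996) from 538 UMIs with DMSO and 3.92 CPM (3.53 to 4.35) with dTAG13, a ratio of 0.854 (0.745 to 0.978). The intervals of these 3 ratios leave out a rise or a fall of 1.5-fold between these libraries.

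Of the 5 genes, 2 were past 1.5-fold upward from DMSO to dTAG13 and 0 past 1.5-fold downward. Among the 8817 genes that reached 5 CPM in either library, 14.2% were past the upper limit and 5.4% past the lower one. Both Zfp365 and Polk also passed a limit of 2-fold, as 6.17% of these genes did. A higher ratio than that of Zfp365 was found for 38 of the 8817 genes (0.431%), and a higher ratio than that of Polk for 403 (4.57%). Zfp365, at 4.99 CPM with DMSO, reached 5 CPM only in the dTAG13 library, so its place among the 8817 rests on the library where it was high. Ddb2 stayed under 5 CPM in both libraries and is not among the 8817. Scaling by the median of ratios lowered every log2 ratio by 0.153, which took the median log2 ratio over all tested genes from 0.09 to -0.07 and the share of higher genes among those past 1.5-fold from 72.4% to 51.2%; TMM scaling gave -0.03 and 55.7%. Zfp365 and Polk remained 2-fold higher under both scalings, and the log2 ratios of Rrm2b, Xpc and Ddb2 stayed below 0.

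**Figure D1:**
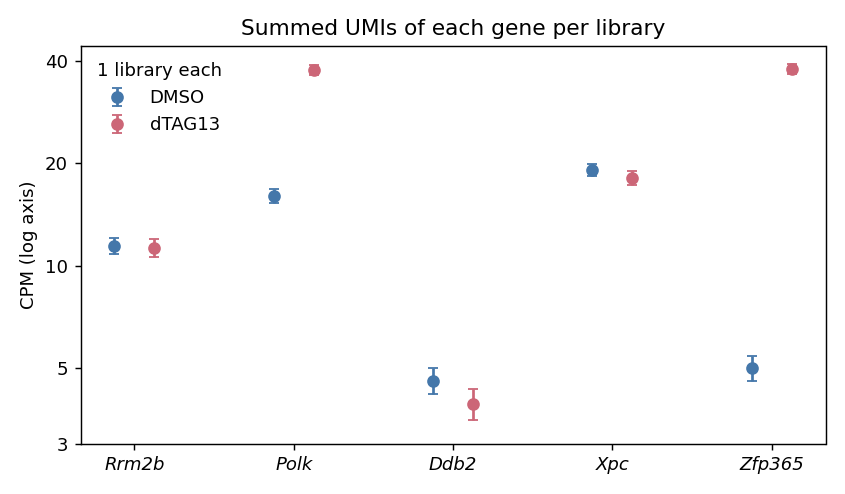
CPM of each gene (log axis) in the DMSO and dTAG13 libraries, 1 library each, with exact 95% Poisson intervals. The points of Zfp365 (4.99 and 37.9 CPM) and Polk (16.02 and 37.6 CPM) stand apart between libraries, while those of Rrm2b, Ddb2 and Xpc lie close together.

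In single cells these transcripts were sparse. To set cells of unequal depth side by side, each cell was thinned to 3900 UMIs, which left out 1755 DMSO and 773 dTAG13 cells. Then 1.81% (1.61 to 2.03) of 16123 DMSO cells held a Zfp365 UMI, against 13.7% (13.02 to 14.3) among 10815 dTAG13 cells. For Polk the shares were 5.90% (5.54 to 6.27) and 13.6% (12.997 to 14.3). Without thinning the Zfp365 shares were 3.10% and 24.2%, and the Polk shares 9.75% and 24.7%. Cells with at least 2 Zfp365 UMIs made up 0.0310% of thinned DMSO and 1.29% of thinned dTAG13 cells, so in both libraries most cells with the transcript held 1 UMI of it among 3900.

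The shares of the other genes overlapped between libraries within their intervals. Rrm2b was seen in 4.22% (3.92 to 4.55) of thinned DMSO cells, and with dTAG13 this was 4.2996% (3.93 to 4.70). Xpc was seen in 6.90% (6.52 to 7.31) and 7.33% (6.85 to 7.84), and Ddb2 in 1.73% (1.53 to 1.94) and 1.53% (1.31 to 1.78). Without thinning, the shares were 7.11% and 8.43% for Rrm2b, 11.6% and 13.2% for Xpc and 2.95% and 3.05% for Ddb2. These unthinned shares go with the greater depth of dTAG13 cells.

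**Figure D2:**
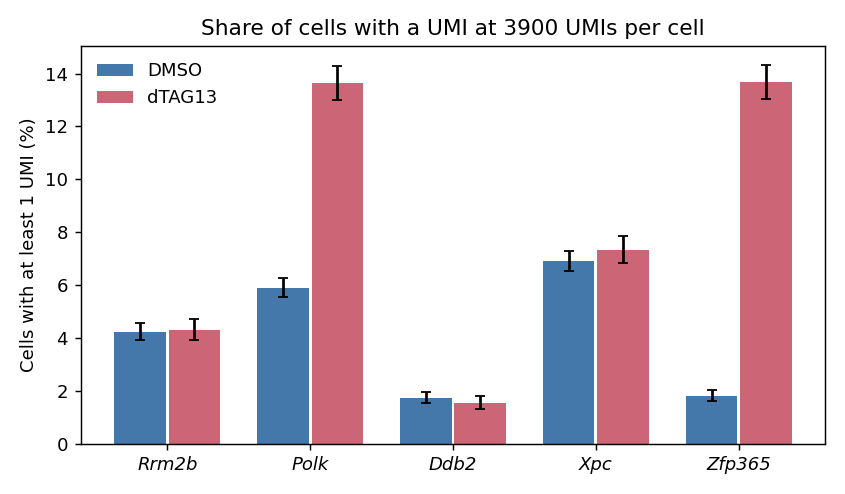
Share of cells (%) with at least 1 UMI of each gene after thinning to 3900 UMIs, with exact 95% binomial intervals, in 16123 DMSO and 10815 dTAG13 cells. Bars differ between libraries for Polk (5.90% and 13.6%) and Zfp365 (1.81% and 13.7%) and overlap within intervals for the other genes.

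No cell type known to lack these genes was defined, and detection from free RNA was not measured for them directly. An upper limit came from Zscan4 genes, which are known to be active in rare stem cells and which led cluster 12. Of their UMIs, 32 of 435 in the DMSO library and 53 of 888 in the dTAG13 library lay outside that cluster. Divided by the share of all UMIs outside it, this bounds free RNA at 7.39% (5.05 to 10.4) with DMSO and 5.9996% (4.49 to 7.85) with dTAG13. If all genes shed RNA in that proportion, free RNA would hold 2.27 of the 37.9 CPM of Zfp365 and 2.26 of the 37.6 CPM of Polk in the dTAG13 library.

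Few cells held several of the 5 transcripts. At 3900 UMIs, 81.2% of DMSO and 65.5% of dTAG13 cells had a UMI of none of them, 17.2% and 29.0% of exactly 1 gene, and 1.62% and 5.51% of at least 2 genes. All 5 were found together in 0 of the thinned cells. Zfp365 was seen more often in cells that also held Mdm2, the ubiquitin ligase gene by which p53 limits itself: in DMSO cells 3.81% (3.07 to 4.66) of 2365 cells with an Mdm2 UMI and 1.47% (1.27 to 1.68) of 13758 cells without one held a Zfp365 UMI. In dTAG13 cells the corresponding shares were 15.02% (14.2 to 15.9) of 7323 and 10.8% (9.81 to 11.9) of 3492. Polk showed the same order, with 8.71% (7.60 to 9.92) against 5.42% (5.04 to 5.81) in DMSO cells and 14.4% (13.6 to 15.2) against 12.1% (11.02 to 13.2) in dTAG13 cells.

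For the remaining genes, cells with and without Mdm2 overlapped in both libraries. In DMSO cells the shares with and without an Mdm2 UMI were 4.27% and 4.22% for Rrm2b, 7.19% and 6.85% for Xpc and 1.78% and 1.72% for Ddb2. In dTAG13 cells they were 4.40% and 4.10%, 7.44% and 7.10%, and 1.49% and 1.63%. Between Polk and Zfp365 themselves, Polk was seen in 9.93% (6.75 to 14.0) of DMSO cells with Zfp365 and 5.82% (5.46 to 6.20) of those without, and in 15.4% (13.6 to 17.3) and 13.4% (12.7 to 14.1) of dTAG13 cells, where the intervals overlap. With Cdkn1a in place of Mdm2, Polk in DMSO cells was at 8.24% (7.33 to 9.21) with and 5.27% (4.89 to 5.68) without it. In dTAG13 cells these Polk shares were 13.4% (12.5 to 14.3) and 13.9% (12.96 to 14.9). Zfp365 was at 2.79% (2.27 to 3.41) with and 1.55% (1.34 to 1.78) without Cdkn1a in DMSO cells. In dTAG13 cells these Zfp365 shares were 14.5% (13.64 to 15.5) and 12.6% (11.7 to 13.60). Xpc was seen in 9.13% (7.71 to 10.7) of dTAG13 cells with Zfp365 and 7.05% (6.54 to 7.59) of those without, while in DMSO cells these shares were 6.16% (3.69 to 9.57) and 6.92% (6.53 to 7.32).

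The cells were next ordered by a larger set of p53 targets that holds none of the 5 genes. Of 33 such targets that reached 5 CPM, 27 passed 1.5-fold upward with dTAG13 and 0 passed it downward, beside 14.2% and 5.4% of all genes tested. Among the 27, Fas, Cd80, Pmaip1, Gdf15 and Ccnd2 reached 5 CPM only in the dTAG13 library. Their median log2 ratio was 1.31 against 0.09 over all tested genes. Mdm2 was at 45.3 and 364 CPM, and Cdkn1a, the growth arrest inhibitor p21, at 66.9 and 232 CPM, while Trp53 mRNA was at 459.7 and 456 CPM. The list held 35 genes. Rps27l and Bax, at 1543 and 663 CPM in the DMSO library, held many of its UMIs and were left out of the ordering below, a choice made after the data were seen.

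In thinned DMSO cells, Zfp365 was at 2.28 CPM (1.66 to 3.05) in 5067 cells with 0 or 1 UMI of the other targets. It was at 3.70 CPM in cells with 2 to 3, at 5.90 CPM (4.74 to 7.26) in cells with 4 to 6, and at 15.6 CPM (11.9 to 19.96) in 1021 cells with 7 to 10. In dTAG13 cells of the same classes Zfp365 was at 15.6 (6.28 to 32.2), 23.6, 27.3 (23.9 to 31.0) and 35.0 CPM (32.1 to 38.1), and it reached 66.7 CPM (59.0 to 75.1) in 1042 cells with 16 to 25 UMIs. The transcript was thus higher in cells with more p53 target UMIs in each library. At an equal number of such UMIs it was also higher in dTAG13 than in DMSO cells in each of these 4 classes. In cells with 11 to 15 the intervals overlapped, at 27.4 CPM (14.98 to 46.0) in 131 DMSO cells and 45.5 CPM (41.7 to 49.6) in dTAG13 cells. Classes set by so few UMIs are noisy, so an equal count is not an equal level of the targets. What part this has in the difference was not tested.

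Polk followed the same order in DMSO cells, at 9.97 CPM (8.63 to 11.5) with 0 or 1 UMI of the other targets, 14.2 CPM with 2 to 3, 21.4 CPM (19.1 to 23.8) with 4 to 6 and 27.1 CPM (22.2 to 32.7) with 7 to 10. The 131 DMSO cells with 11 to 15 held Polk at 50.9 CPM (33.2 to 74.6), which overlaps the 39.6 CPM (36.1 to 43.5) of dTAG13 cells in that class. In dTAG13 cells Polk was at 32.2 CPM (28.5 to 36.2) with 4 to 6, 37.8 CPM (34.8 to 41.1) with 7 to 10 and 48.2 CPM (41.7 to 55.5) with 16 to 25. Its range across these classes was narrower than that of Zfp365.

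For Rrm2b, Xpc and Ddb2 the intervals of the low and high classes given here overlapped. Rrm2b was at 11.3 CPM (9.90 to 12.9) in DMSO cells with 0 or 1 UMI of the other targets and 10.0 CPM (7.18 to 13.7) in those with 7 to 10, and at 12.0 CPM (9.80 to 14.6) and 14.3 CPM (10.8 to 18.5) in dTAG13 cells with 4 to 6 and 16 to 25. Xpc was at 15.8 CPM (14.1 to 17.7) and 21.1 CPM (16.8 to 26.1) in the same DMSO classes and at 17.9 CPM (15.2 to 21.0) and 16.7 CPM (12.99 to 21.2) in the same dTAG13 classes. Ddb2, from few UMIs, was at 4.71 CPM (3.798 to 5.77) and 5.27 CPM (3.26 to 8.06) in DMSO cells and at 5.13 CPM (3.73 to 6.88) and 1.97 CPM (0.850 to 3.88) in dTAG13 cells. With all 35 targets and 4 equal groups of DMSO cells, Zfp365 was at 2.54 CPM in the lowest and 8.65 CPM in the highest group, and Polk at 12.3 and 21.7 CPM. Rrm2b was at 12.7 CPM (10.96 to 14.5) and 9.03 CPM (7.61 to 10.6) there. Without Rps27l and Bax its values were 11.4 CPM (9.84 to 13.2) and 11.8 CPM (10.2 to 13.7), so its lower level in the highest group held only with them. In dTAG13 cells and all 35 targets, Ddb2 was at 5.88 CPM (4.51 to 7.54) in group 1 of 4. It was at 3.03 CPM (2.08 to 4.28) in group 3 and 3.70 CPM (2.63 to 5.06) in group 4. The intervals of groups 1 and 3 overlapped only without Rps27l and Bax. Without these 2, Xpc in DMSO cells was at 15.7 CPM (13.8 to 17.80), 20.1 CPM (17.95 to 22.4) and 19.2 CPM (17.0 to 21.4) in groups 1, 3 and 4.

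**Figure D3:**
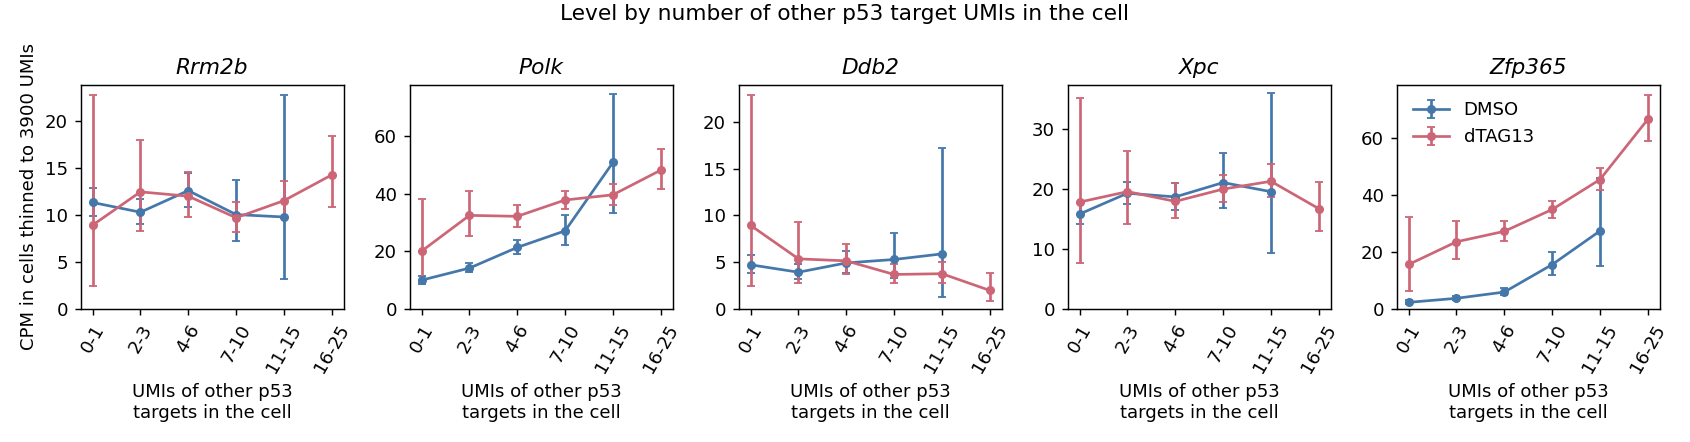
CPM of each gene in thinned cells (vertical axes, each from 0) by the number of UMIs of 33 other p53 targets in the cell (horizontal axis), with exact 95% Poisson intervals; classes with under 100 cells are not drawn. Zfp365 goes from 2.28 to 27.4 CPM in DMSO cells and from 15.6 to 66.7 CPM in dTAG13 cells, while Rrm2b and Xpc lie between 8.92 and 21.3 CPM throughout.

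Cell cycle phase calls differed between the libraries, with 350 DMSO cells (1.96%) and 2291 dTAG13 cells (19.8%) called G1. The genes were therefore also compared within called phases. Of the 42 genes used to call S, 8 were at least 1.5-fold lower with dTAG13 and 1 higher, beside 5.4% and 14.2% of all genes tested. What part this has in the calls was not tested. Zfp365 was higher with dTAG13 in each phase, at 6.93 and 35.9 CPM in G1, 5.86 and 31.3 CPM in S and 4.75 and 39.3 CPM in G2 and M. Polk was at 20.1 and 38.2 CPM in G1, 16.8 and 33.0 CPM in S and 15.8 and 38.3 CPM in G2 and M. The ratios in S were 5.34 (4.36 to 6.57) for Zfp365 and 1.96 (1.70 to 2.27) for Polk, and in G2 and M 8.28 (7.48 to 9.17) and 2.43 (2.27 to 2.59). In S and in G2 and M, 2 of the 5 genes were at least 1.5-fold higher, as were 10.8% and 13.6% of the genes tested in these phases.

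The ratio of Rrm2b was 0.966 (0.613 to 1.60) in G1, 0.928 (0.738 to 1.16) in S and 0.952 (0.866 to 1.05) in G2 and M. Rrm2, the paralog that supplies DNA building blocks in S phase, was at 234 and 300.5 CPM in cells called S and at 76.3 and 42.5 CPM in cells called G1, with DMSO and dTAG13; it was 1 of the genes used to call S. Within DMSO cells Rrm2b was at 14.6 CPM (9.01 to 22.3) in G1 and 11.004 CPM (9.68 to 12.5) in S, where the intervals overlap. Within dTAG13 cells Rrm2b was at 14.1 CPM (12.1 to 16.3) in G1, above the 10.9 CPM (10.2 to 11.7) of G2 and M, and at 10.2 CPM (8.43 to 12.3) in S. Xpc had ratios of 1.13 (0.773 to 1.72), 0.871 (0.729 to 1.04) and 0.914 (0.849 to 0.985) in the same order of phases. Within dTAG13 cells it was at 22.8 CPM (20.3 to 25.5) in G1, above the 16.6 CPM (14.3 to 19.2) of S and the 17.5 CPM (16.5 to 18.5) of G2 and M. In dTAG13 cells Ddb2 was at 1.78 CPM (1.13 to 2.67) in G1 and at 4.89 CPM (3.68 to 6.36) in S, where DMSO cells had 3.47 CPM (1.13 to 8.09) and 4.304 CPM (3.49 to 5.25). The G1 and S intervals of Ddb2 did not overlap in dTAG13 cells and overlapped in DMSO cells. Cells called G1 were also shallower than those called S, at a median of 5054 against 6600 UMIs with dTAG13. With DMSO the medians were 3909 and 5336.5 UMIs, and the part of depth was not tested.

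Clusters, made without the 5 genes, fell mostly by library. Clusters are called here by number and leading genes. Of the cells, 95.1% of DMSO and 8.36% of dTAG13 cells lay in 7 clusters held mostly by DMSO cells, and 90.6% of dTAG13 and 3.07% of DMSO cells in 4 held mostly by dTAG13 cells. These clusters rest in part on other p53 targets, and doublets were not removed. The 549 DMSO cells in the dTAG13 clusters held Zfp365 at 22.03 CPM (17.3 to 27.6) and Polk at 32.3 CPM (26.6 to 38.9), against 4.48 CPM (4.10 to 4.89) and 15.5 CPM (14.8 to 16.3) in the 16999 DMSO cells of the DMSO clusters. The 969 dTAG13 cells in the DMSO clusters held them at 14.8 CPM (12.2 to 17.8) and 25.8 CPM (22.4 to 29.6), against 40.1 CPM (38.8 to 41.5) and 38.9 CPM (37.5 to 40.2) in the other clusters. For Zfp365 both minority sets lay between the bulk of the libraries, while for Polk the interval of the 549 DMSO cells overlapped that of the dTAG13 bulk. Mdm2 was at 196 and 134 CPM in the minority sets. What part free RNA or doublets have in these values was not tested.

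Ratios were also taken inside the 8 clusters to which both libraries gave 100 cells or more, and there the point values of Polk and Zfp365 were below the overall ones. The Polk ratio lay between 1.01 (0.599 to 1.60) in cluster 1 and 2.28 (1.59 to 3.21) in cluster 9, against 2.35 overall. Its interval included 1 in 6 of these 8 clusters and lay above 1 in clusters 8 and 9. The Zfp365 ratio lay between 1.12 (0.811 to 1.58) in cluster 3 and 5.07 (2.26 to 10.6) in cluster 9, against 7.58 overall. Its interval included 1 in clusters 1 and 3 and lay above 1 in the other 6. Each cluster held few cells of 1 of the libraries, which sets the width of these intervals.

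Of the remaining genes, the Rrm2b ratio was 0.563 (0.346 to 0.972) inside cluster 2 and the Xpc ratio 0.649 (0.442 to 0.991) inside cluster 3. Their intervals included 1 in the other clusters compared, as did those of Ddb2 in all of them. The sets of 549 DMSO and 969 dTAG13 cells showed no split for these genes. Rrm2b was at 11.5 CPM (8.15 to 15.7) in the 549 DMSO cells and 12.3 CPM (9.94 to 14.98) in the 969 dTAG13 cells, Xpc at 16.7 CPM (12.7 to 21.7) and 19.4 CPM (16.5 to 22.8), and Ddb2 at 3.52 CPM (1.82 to 6.16) and 4.73 CPM (3.33 to 6.52).

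Across the clusters with at least 200 cells of a library, Zfp365 spanned 2.03 CPM (1.33 to 2.98) in cluster 9, led by Rhox6 and Rhox9, to 6.80 CPM (5.65 to 8.12) in cluster 6, led by Gfpt2 and Ptch1, among 7 DMSO sets. Among 5 dTAG13 sets it spanned 19.4 CPM (14.2 to 25.9) in cluster 10, led by Ebf1 and Grb10, to 53.1 CPM (50.0 to 56.4) in cluster 7, led by Krt19, Sct and Prph. All 5 dTAG13 sets of this size lay above all 7 DMSO sets. Smaller sets did not keep this order. The 179 DMSO cells of cluster 3 held Zfp365 at 34.3 CPM (24.4 to 46.9). The 91 dTAG13 cells of cluster 4 held it at 6.66 CPM (2.16 to 15.6), from 5 UMIs. Cluster 7 also had the highest Polk of the dTAG13 sets, 43.1 CPM (40.3 to 46.1), against 22.8 CPM (17.1 to 29.8) in cluster 10. Clusters 2, 3 and 5 lay between, at 34.8, 37.4 and 39.4 CPM of Polk, and their intervals overlapped between neighbours among these 3 but not with that of cluster 10. Without cluster 7 the Zfp365 log2 ratio was 2.76 and that of Polk 1.18.

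Polk in DMSO sets ranged from 10.4 CPM (9.16 to 11.8) in cluster 0, led by Hopx and Krt17, to 20.6 CPM (18.6 to 22.8) in cluster 6. Xpc was at 15.8 CPM (14.2 to 17.4) in cluster 0 and at 25.8 CPM (23.1 to 28.7) in cluster 9 among DMSO sets, and at 15.996 CPM (14.4 to 17.7) in cluster 3 and 22.1 CPM (19.9 to 24.5) in cluster 2 among dTAG13 sets. Cluster 3 is led by replication-dependent histone genes and cluster 2 by Ccn1 and Phlda1. Rrm2b was lowest in cluster 0 at 9.82 CPM (8.61 to 11.2) and highest in cluster 9 at 14.9 CPM (12.9 to 17.2) with DMSO, while its dTAG13 sets overlapped, from 8.45 CPM (5.16 to 13.04) to 11.9 CPM (10.4 to 13.5). Ddb2 lay between 2.96 and 5.56 CPM in all 12 sets. The sets with the most Xpc and Rrm2b in the DMSO library were thus the same, cluster 9, which held the least Zfp365.

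**Figure D4:**
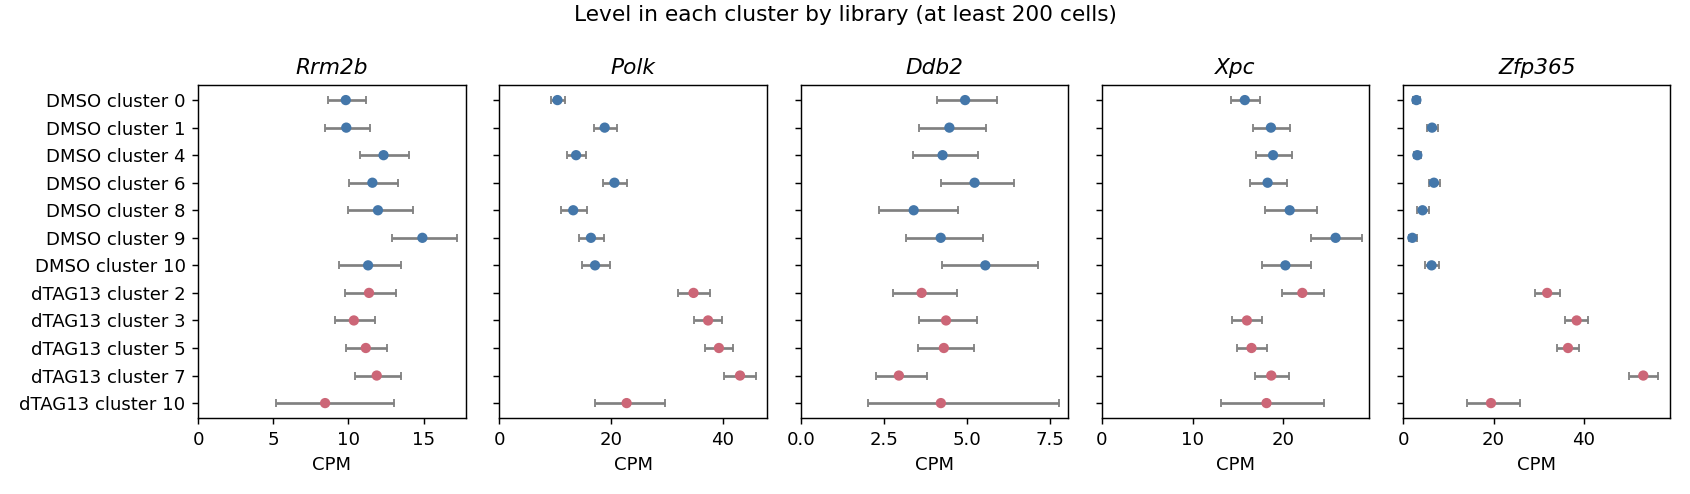
CPM of each gene (horizontal axes, each from 0) in every set of at least 200 cells of 1 cluster and 1 library, with exact 95% Poisson intervals; blue marks DMSO and red dTAG13. The 5 dTAG13 sets of Zfp365 (19.4 to 53.1 CPM) lie above the 7 DMSO sets (2.03 to 6.80 CPM), while the sets of Rrm2b, Ddb2 and Xpc overlap between libraries.

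Likeness of pattern was measured as Pearson's r of log2(CPM + 1) over these 12 sets, among 5005 genes that reached 20 CPM in either library; the sets share 2 libraries, so r mostly follows the difference between them for genes that differ. The genes most like Zfp365 were Zmat3 (r = 0.993), Ddit4l, Map3k20, Upf3b and Marchf5, with r of 0.985 for the last. Zmat3, an RNA-binding protein gene and p53 target, was at 28.9 and 66.9 CPM with DMSO and dTAG13. Those most like Polk were Csnk1g1 (0.986), Rlf, Rnf169, Wdr35 and Plk2. Plk2, a kinase gene and p53 target, was at 20.3 and 141 CPM. The nearest to Rrm2b were Tln1 (0.929), Leprot, Napg, Anxa6 and Ascc3. The nearest to Xpc were Zfp622 (0.873), Jak1, Sec62, Nfe2l2 and Emc2, and those near Ddb2 included Mtss1 (0.852), G3bp1, Ttc32 and Epb41l4aos. The highest of 5005 values of r over 12 sets can be high without a shared pattern, and this was not tested. Among the 5 genes themselves, r was 0.95 between Polk and Zfp365, with 0.624 over the 7 DMSO and 0.964 over the 5 dTAG13 sets. Between Rrm2b and Xpc it was 0.678, with 0.869 over the DMSO and 0.222 over the dTAG13 sets. Over the 5 dTAG13 sets alone, Rrm2b also had r of 0.937 with Polk and 0.882 with Zfp365, against 0.16 and -0.53 over the DMSO sets. The intervals of Rrm2b overlapped among these 5 sets, and its lowest value, in cluster 10, rested on 20 UMIs. These r values can thus follow counting error, which was not tested.

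Of the 8 partners and relatives looked at, 1, Rev1, was past 1.5-fold upward, beside 14.2% of all genes tested. The other 7 were not past 1.5-fold, and Polh among them stayed under 5 CPM in both libraries. For Rrm2b, the large subunit gene Rrm1 was at 135 and 111 CPM with DMSO and dTAG13, and the small subunit gene Rrm2 at 162 and 179.6 CPM. For Polk, the translesion polymerase genes Poli and Polh were at 12.95 and 16.3 CPM and at 1.40 and 1.70 CPM, and Rev1, which recruits such polymerases, was at 43.5 and 93.8 CPM, a ratio of 2.16 (2.08 to 2.23). For Ddb2, its partner Ddb1 was at 73.0 and 94.2 CPM, and for Xpc, its partners Rad23b and Cetn2 were at 90.9 and 90.3 CPM and at 35.0 and 28.9 CPM. Scaled by library totals, Polk and Rev1 were both more than 2-fold higher with dTAG13, whereas Poli had a ratio of 1.26 (1.17 to 1.36). Median-of-ratios and TMM scaling shift every log2 ratio by -0.153 and -0.121. From a log2 ratio of 1.11, Rev1 then falls below 2-fold, while Polk does not.

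Over 9 lists of repair and damage response genes, 158 genes other than these 5 had at least 5 CPM. Of them 11 (6.96%) were higher by 1.5-fold or more with dTAG13 and 5 (3.16%) lower by as much, beside 14.2% and 5.4% of all genes tested, and their median log2 ratio was -0.01 beside 0.09. Under median-of-ratios scaling 6 were higher and 14 lower, and under TMM scaling 6 and 12. The median over the 5 genes of interest was -0.02, the value of Rrm2b.

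In nucleotide excision repair, the pathway of Ddb2 and Xpc, 3 of 38 genes (7.89%) were higher and 0 lower, beside 14.2% and 5.4% of all genes tested. These same shares of all genes stand beside the counts of each pathway that follows. Ercc5, the nuclease that cuts on the 3′ side of the damage, was at 21.8 CPM (21.0 to 22.7) and 77.7 CPM (75.9 to 79.5), a ratio of 3.56. Uvssa, of transcription-coupled repair, was at 3.11 and 6.16 CPM, so it reached 5 CPM only in the dTAG13 library. Cul4a, the scaffold of the Ddb2 ligase, was at 16.5 and 26.3 CPM, and its paralog Cul4b at 144 and 211.7 CPM. In translesion synthesis 1 of 12 was higher, Rev1, and 2 were lower, namely Mad2l2, a subunit of polymerase zeta, at 16.5 and 10.2 CPM, and Pcna, the sliding clamp, at 154 and 102 CPM. Of 14 genes of DNA building block supply 0 were higher and 1 lower: the thymidine kinase gene Tk1, at 61.6 and 32.0 CPM. Samhd1, which breaks dNTPs down, was at 19.0 and 25.1 CPM.

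In base excision repair 1 of 17 was higher, the scaffold gene Xrcc1, at 14.6 and 31.3 CPM, with Polb at 40.4 and 57.7 CPM and Tdg at 38.5 and 50.5 CPM. In homologous recombination 2 of 27 were higher and 1 was lower, Brca1 at 72.4 and 44.3 CPM; its partner Bard1 was at 21.2 and 15.2 CPM. In end joining 2 of 10 were higher, Shld2 at 19.4 and 44.5 CPM and Nhej1 at 6.76 and 12.9 CPM, with Prkdc at 19.7 and 24.4 CPM. In the Fanconi and crosslink list 1 of 13 was higher, Slx4 at 6.45 and 9.81 CPM, and 1 lower, Fanca at 11.8 and 7.32 CPM; Faap24 was at 15.1 and 10.5 CPM and Ube2t at 65.2 and 51.8 CPM.

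Among 8 mismatch repair genes 0 passed 1.5-fold in either direction, with Pms1 at 14.9 and 11.6 CPM, Mlh3 at 34.0 and 40.4 CPM and Exo1 at 33.4 and 31.2 CPM. Among 19 checkpoint genes 1 was higher, Rad9a at 7.23 and 10.99 CPM, and Cdc25a was at 65.7 and 47.1 CPM and Atr at 15.1 and 19.4 CPM. A further list of repair and damage response genes linked to p53 overlaps these lists and the list of p53 targets above. It had 5 of 11 measured members higher by 1.5-fold or more and 2 lower, beside 14.2% and 5.4% of all genes tested. The higher ones included Ercc5, Aen at 34.8 and 79.1 CPM, Mgmt, the direct repair enzyme for alkylated guanine, at 42.5 and 91.9 CPM, and Ppm1d at 17.9 and 33.2 CPM. Aen and Ppm1d were already counted among the 27 higher p53 targets above. The lower ones were Brca1 and Pcna. Gadd45a, a damage-inducible p53 target, was at 25.1 and 25.5 CPM, and Fancc had a ratio of 1.16.

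**Figure D5:**
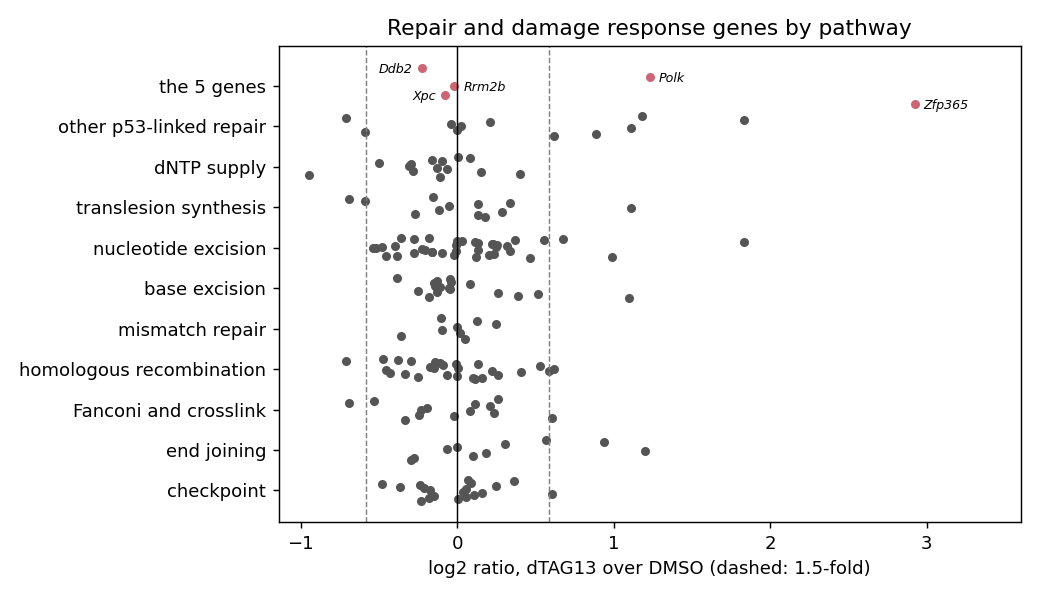
Log2 ratio of dTAG13 over DMSO (horizontal axis; dashed lines at 1.5-fold) for the 5 genes (red) and for genes of each pathway list with at least 5 CPM (grey), 1 point per gene. Zfp365 (2.92) and Polk (1.23) lie right of the upper line; Ddb2, Xpc and Rrm2b lie between the lines, as do most genes of each pathway.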

How the data were processed

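Single-cell RNA sequencing libraries (10x Chromium 3′, per the labels' protocols) were made from DMSO and dTAG13 embryoid bodies, 1 library each. The deposited values are whole-number UMI counts per gene and cell barcode, and per the file headers the authors obtained them from Cell Ranger 8.0.1. Seurat 5.0.1, R 4.3.2 and mm10 are listed in the submitters' processing notes. Of 33696 identifiers 5.00% are absent from GENCODE M21, so the annotation used is not settled and no gene coordinates are given. The handling of intronic reads was not stated in the labels. In GENCODE M21 none of the 5 genes overlaps another counted gene on its strand.

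UMIs were summed over cells, leaving out those under 500 genes or over 10% mitochondrial UMIs (Python 3.11.15, scipy 1.17.1). CPM has exact Poisson, ratios exact conditional binomial and shares exact Clopper-Pearson intervals. Thinning drew 3900 UMIs per cell without replacement. Phases and clusters were made with scanpy 1.11.5 and leidenalg 0.10.2 without the 5 genes. No doublets were removed. The ratio calculation was run on simulated Poisson counts with known folds. These had no spread between libraries or cells, so the run checks the calculation and not the error between libraries. TMM and median-of-ratios factors were computed from the 2 library sums.

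The members and the gene lists were chosen with earlier results of these data known. Genes were named by rule: the 5 genes, Tex10, Trp53, Mdm2, Cdkn1a, fixed partners, up to 3 genes of each repair list with the largest change at 10 CPM or more, and the 5 genes most like each member. Members of the further p53-linked list, feeder markers and genes that complete a count of 5 or fewer were named after their values were seen. Some genes that the rule selects are not reported here. Alternatives were other scalings, cell filters, thinning, minimum CPM, removal of the 5% of cells with the most UMIs, and G2 and M cells alone.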

Additional observations from a re-analysis of the deposited data

How the results depend on the processing

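The genes past 1.5-fold upward, Zfp365 and Polk, were 2 in number under all alternatives run, including a limit of 2-fold and, added after the data were seen, leaving out the cluster led by Krt19. Over all settings the log2 ratio ranged from 2.76 to 3.05 for Zfp365, 1.08 to 1.28 for Polk, -0.17 to 0.02 for Rrm2b, -0.23 to 0.10 for Xpc and -0.38 to -0.13 for Ddb2. Outside the counting intervals were the values with median-of-ratios scaling (Zfp365 2.77, Polk 1.08, Rrm2b -0.17, Xpc -0.23), with TMM scaling (Polk 1.11, Rrm2b -0.14, Xpc -0.20), Xpc in thinned cells (0.10) and as a mean over cells of per-cell CPM (0.038), and Zfp365 without the Krt19 cluster (2.76). The sign of the Rrm2b and Xpc ratios therefore depends on the setting. For the 158 other repair genes, the count at least 1.5-fold higher was 11, and 6 with median-of-ratios scaling, 6 with TMM and 6 of 106 genes at 20 CPM or more. The count at least 1.5-fold lower was 5, and 14, 12 and 3 in the same order. Their median log2 ratio was -0.01, and -0.17, -0.14 and -0.11 in that order. Scaling moves every ratio by 1 factor; fewer genes were tested at 20 CPM.

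Shares of cells with a UMI move with depth by construction. At 2000 UMIs per cell they were 2.11% of DMSO and 2.15% of dTAG13 cells for Rrm2b, 3.20% and 6.87% for Polk, 0.834% and 0.817% for Ddb2, 3.66% and 3.91% for Xpc and 1.06% and 7.34% for Zfp365. Without thinning they were 7.11% and 8.43%, 9.75% and 24.7%, 2.95% and 3.05%, 11.6% and 13.2%, and 3.10% and 24.2% in the same order. Depth limits Ddb2 most, with 538 and 360 UMIs. No paired analysis was possible because each group is 1 library.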
